A study of Mus musculus with 7 samples.

Results

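The transcripts described here encode 8 secreted mediators of regulatory T cells (Tregs): Il10, Ebi3, Il12a, Areg, Penk, Fgl2, Ccl5 and Ecm1. They were taken by symbol from a table of 51138 genes, and all 8 were found in it. The table holds RNA from 7 Treg samples, each sorted 72 h after an injection from the spleen of mice labelled RFP-FoxP3+ BL6 (strain label C57/BL6). The mice of 4 samples received 20 ug of FP, a fusion protein of interleukin-2 (IL-2) and its receptor chain CD25, and those of 3 samples received 100 uL of PBS. Both groups thus share the red fluorescent Foxp3 reporter, strain, organ and time, and differ in what was injected. The sources used here do not give age, sex, the construction of the reporter or whether a sample pooled animals. Nothing says that the replicates are separate mice, so a p value measures only how these samples spread, which may be technical.

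Tregs restrain other cells partly through what they release. IL-10, a homodimer, lowers cytokine production and antigen presentation in myeloid cells, and IL-35 pairs the subunits encoded by Ebi3 and Il12a. Amphiregulin (Areg) is a growth factor of the epidermal growth factor (EGF) family that Tregs use in tissue repair, Penk encodes the precursor of the enkephalin opioid peptides, and Fgl2 encodes a fibrinogen-like protein whose soluble form acts on Fc receptors of antigen-presenting cells. Ccl5 is a chemokine of activated lymphocytes, and Ecm1 encodes a secreted extracellular matrix glycoprotein. IL-2 acts on Tregs through a receptor that activates the transcription factor STAT5.

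The mediators moved in both directions after FP. Ecm1, Fgl2 and Il10 rose 2.30-fold, 2.10-fold and 2.28-fold, while Penk, Ccl5 and Ebi3 fell, with log2 fold changes of -0.97, -1.001 and -0.57. Areg had a log2 fold change of 1.26 that did not pass the test, and Il12a, with 3 counts in 1 library, was too low to be tested. The test was edgeR's quasi-likelihood test with p values adjusted by Benjamini-Hochberg over all 15954 genes that passed a filter on low counts. At a threshold of 0.05 it called 39.5% of those genes. It called 6 of the 7 mediators tested, 3 higher (21.0% of all genes) and 3 lower (18.5% of all genes). The median log2 fold change of the 7, with Areg included, was 1.07, the value of Fgl2, and that of all genes tested was -0.05. As the values lie on both sides of 0, this median does not stand for the set. The mediators were chosen with results of these data known, so these shares describe the choice and give it no support. The groups did not overlap in Il10, Ebi3, Penk, Fgl2, Ccl5 and Ecm1, as in 46.7% of all genes tested (23.2% higher and 23.5% lower after FP).

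**Figure D1:**
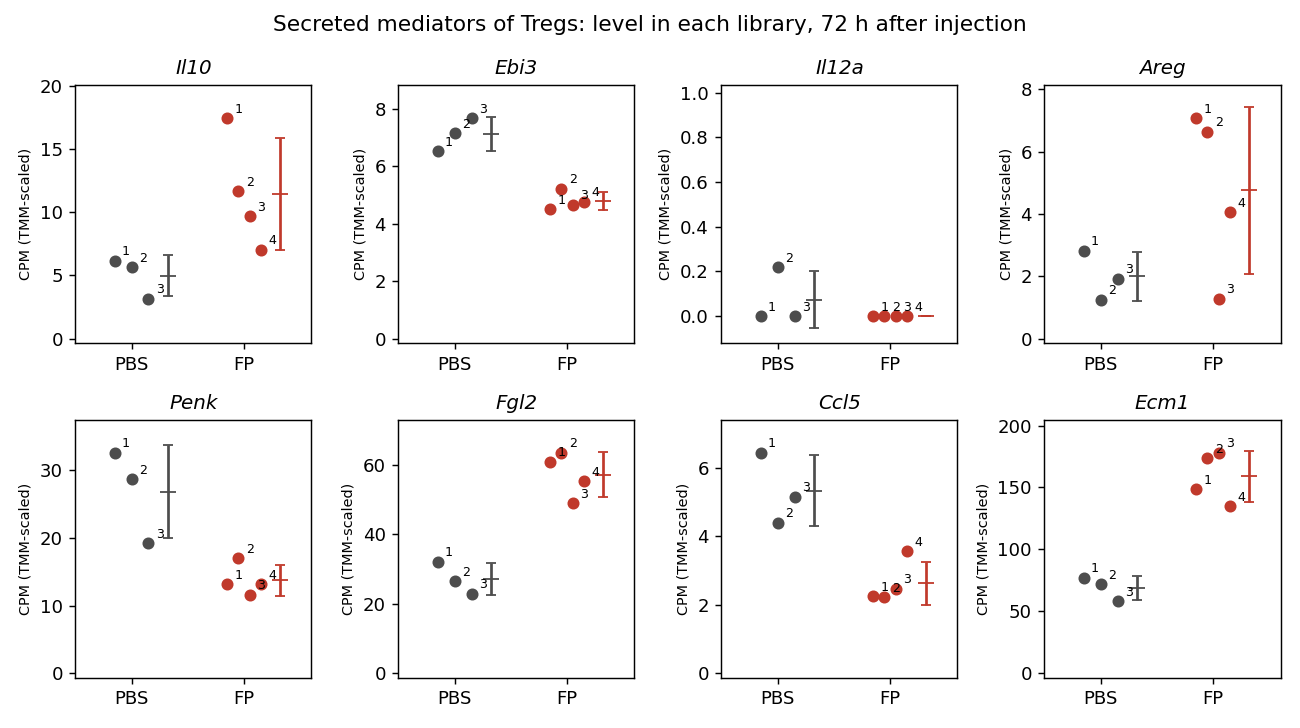
Level of each mediator in each library, in CPM (counts scaled to the size of each library) with TMM-scaled library sizes; points are libraries numbered by replicate, and the bars give the mean ± SD of 3 PBS (grey) and 4 FP (red) libraries. All FP libraries lie above all PBS libraries for Il10, Fgl2 and Ecm1 and below them for Ebi3, Penk and Ccl5, and FP replicate 3 lies among the PBS libraries for Areg.

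The libraries held 9956509 to 13429878 counts. Foxp3, the transcription factor of the sorted cells, measured 483 to 595 CPM after FP and 483 to 497 CPM after PBS, and its log2 fold change of 0.14 (SE 0.10) had an edgeR adjusted p of 0.292. Other scalings turned its sign, to -0.068 under upper-quartile factors and -0.13 under library size alone, and moved the median of all genes to -0.25 and -0.31. The other Treg markers listed were present in every library. Il2ra (1.69), Tnfrsf18 (1.07), Ctla4 (0.97) and Ikzf2 (0.54) rose on the log2 scale, and Cd4 (0.12) and Cd3e (0.11) did not pass. Transcripts that mark other cell types were also counted. All 15 macrophage and monocyte markers fell after FP, their summed level was 25.2 to 145 CPM after FP and 803 to 2049 CPM after PBS, and none was at 0 in all libraries of a group. In bulk RNA, fewer cells of a type and less RNA per cell cannot be told apart.

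Il10 (ENSMUSG00000016529.5, GRCm38 chr1:131019845-131024974, plus strand) measured 17.5, 11.7, 9.69 and 7.05 CPM in FP replicates 1 to 4 and 6.17, 5.63 and 3.15 CPM in PBS replicates 1 to 3. The lowest FP library lay just above the highest PBS library, and the FP libraries spread widely (coefficient of variation 38.6%). The log2 fold change was 1.19 (SE 0.33), with an edgeR adjusted p of 0.0169. Leaving out PBS replicate 3, the library with the least Il10, gave 0.95 and an adjusted p of 0.0710, which misses the threshold. Il10 is also made by macrophages and B cells. The macrophage and monocyte markers summed to 25.2 to 145 CPM after FP and 803 to 2049 CPM after PBS. The summed level of 10 B cell markers was 31.3 to 40.6 CPM after FP and 33.8 to 57.9 CPM after PBS. That sum joins markers that went opposite ways. Of the 10, 1 was called higher, 3 lower, 5 did not pass and 1 was not tested, with a median log2 fold change of -0.82. Over all genes tested, 21.0% were higher and 18.5% lower. The 2 most abundant were Cd79b, which rose by 0.73, and Cr2, which fell by 0.97 on the log2 scale. The part of these cells in the Il10 difference was not tested.

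Ebi3 (ENSMUSG00000003206.6, chr17:55952640-55957022, plus strand), the beta subunit shared by IL-35 and IL-27, measured 4.50, 5.23, 4.66 and 4.77 CPM in FP replicates 1 to 4. In PBS replicates 1 to 3 it measured 6.52, 7.17 and 7.69 CPM. Both groups were tight, with coefficients of variation of 6.50% and 8.21%, and every PBS library was above every FP library. The log2 fold change of -0.57 (SE 0.17, edgeR adjusted p = 0.0249) was the smallest among the 6 mediators called. The Ebi3 call was lost when FP replicate 1 or 3 was left out (adjusted p = 0.0528 and 0.0525), when PBS replicate 2 or 3 was left out (0.0841 and 0.107), and when no filter on low counts was used (0.0799). Ebi3 shares exon sequence with Gm16712 on the opposite strand, which measured 1.73 ± 0.497 CPM in the FP libraries (SD, n = 4) against 2.92 ± 0.391 CPM in the PBS libraries (SD, n = 3). The strand setting of the counting is not given, so reads of this pair may be mixed. Ebi3 is also made by dendritic cells, whose 7 markers summed to 11.7 to 15.7 CPM after FP and 24.3 to 35.7 CPM after PBS. Most of that sum was Zbtb46, at 11.2 ± 2.35 CPM in the FP libraries (SD, n = 4) against 19.9 ± 2.29 CPM in the PBS libraries (SD, n = 3). Itgax, the next most abundant, measured 1.26 ± 0.712 CPM in the FP libraries against 5.82 ± 2.22 CPM in the PBS libraries. Macrophage and monocyte markers were lower after FP as well. The part of these cells in the Ebi3 difference was not tested.

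Il12a (ENSMUSG00000027776.12, chr3:68690644-68698547, plus strand), the p35 subunit that IL-35 shares with IL-12, had 3 counts in PBS replicate 2 and 0 counts in each of the other libraries. A count of 0 allows up to 3 counts, or 0.214 to 0.322 CPM in these libraries, so a difference was not detectable at this depth. The other subunits of the family were also too low to be tested. Il12b had 0 counts in all libraries, Il23a 16 and 6 counts over the FP and PBS libraries, and Il27, the partner of Ebi3 in IL-27, 6 and 16 counts. Of 7 further ligand subunits of the IL-10 and IL-12 families, 0 passed the filter, and Il19, Il20, Il22 and Il12b had no count in any library. Of the subunits of IL-12, IL-23, IL-27 and IL-35, Ebi3 alone passed the filter.

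Areg (ENSMUSG00000029378.5, chr5:91139599-91148432, plus strand) measured 7.08, 6.65, 1.28 and 4.06 CPM in FP replicates 1 to 4 and 2.82, 1.24 and 1.92 CPM in PBS replicates 1 to 3. Of the 4 FP libraries 3 lay above all PBS libraries, and FP replicate 3, with 14 counts, lay among them. The log2 fold change was 1.26 (SE 0.52, edgeR adjusted p = 0.0837). It passed without FP replicate 3 (1.57, adjusted p = 0.00885) and in DESeq2 (1.29, adjusted p = 0.0373).

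Penk (ENSMUSG00000045573.9, chr4:4133531-4138819, minus strand) measured 13.2, 17.0, 11.6 and 13.2 CPM in FP replicates 1 to 4 and 32.6, 28.7 and 19.2 CPM in PBS replicates 1 to 3. The lowest PBS library was above the highest FP library by 2.21 CPM. The log2 fold change was -0.97 (SE 0.19, edgeR adjusted p = 0.00323), and Penk passed with each single library left out. Macrophage markers were lower after FP as well, with sums of 803, 2049 and 1451 CPM in PBS replicates 1 to 3, and their part in the Penk difference was not tested. The opposite-strand transcript A830012C17Rik that shares exon sequence with Penk had 1 to 7 counts per library.

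Fgl2 (ENSMUSG00000039899.5, chr5:21372642-21378374, plus strand) measured 60.9, 63.4, 49.0 and 55.2 CPM in FP replicates 1 to 4 and 32.1, 26.5 and 22.9 CPM in PBS replicates 1 to 3. The groups were well apart, with a log2 fold change of 1.07 (SE 0.14, edgeR adjusted p = 0.000275). Fgl2 is also made by macrophages, whose markers summed to 25.2 to 145 CPM after FP and 803 to 2049 CPM after PBS. Their part in the Fgl2 difference was not tested. Fgl2 lies within Ccdc146 on the opposite strand with no shared exon sequence. Ccdc146 measured 2.05 ± 0.241 CPM in the FP libraries (SD, n = 4) against 4.87 ± 1.04 CPM in the PBS libraries (SD, n = 3).

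Ccl5 (ENSMUSG00000035042.2, chr11:83525778-83530518, minus strand) measured 2.25, 2.22, 2.47 and 3.56 CPM in FP replicates 1 to 4, from 21 to 50 counts. In PBS replicates 1 to 3 it measured 6.43, 4.39 and 5.16 CPM, from 59 to 73 counts. FP replicate 4 was closest to the PBS group. The log2 fold change was -1.001 (SE 0.25, edgeR adjusted p = 0.00967), and leaving out PBS replicate 1 gave -0.81, which misses the threshold (adjusted p = 0.0530). CD8 T cells and natural killer (NK) cells also make Ccl5. The 9 markers listed for them summed to 11.2 to 17.0 CPM after FP and 24.4 to 39.0 CPM after PBS. Eomes, a transcription factor of these cells, fell by 2.12 on the log2 scale, and Klrb1c and Klrd1, NK cell receptor genes too low to be tested, had 45 and 20 counts over the PBS and 11 and 4 over the FP libraries, with no overlap between the groups. These 3 genes were named with their values in view. Most of the gap between the summed levels was in Tyrobp, a signalling adaptor that macrophages also express, at 2.56 ± 1.33 CPM in the FP libraries (SD, n = 4) against 16.8 ± 8.02 CPM in the PBS libraries (SD, n = 3). Cd8b1 measured 8.38 ± 1.66 CPM in the FP libraries (SD, n = 4) against 6.80 ± 0.786 CPM in the PBS libraries (SD, n = 3) and did not pass. Cd8a, which did not pass either, had 103 and 91 counts over the FP and PBS libraries, and Ncr1, Klre1 and Gzmk had 0 counts in the PBS libraries and 4, 1 and 2 over the FP libraries. The part of these cells in the Ccl5 difference was not tested.

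Ecm1 (ENSMUSG00000028108.15, chr3:95734147-95739569, minus strand) measured 149, 174, 178 and 135 CPM in FP replicates 1 to 4 and 77.1, 71.8 and 58.3 CPM in PBS replicates 1 to 3. Every FP library was far above every PBS library. The log2 fold change of 1.20 (SE 0.13) had the smallest edgeR adjusted p of the mediators (9.13e-05), and it ran from 0.93 to 1.31 over all alternatives. The microRNA Mir7014 within Ecm1 had 0 counts in every library.

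**Figure D2:**
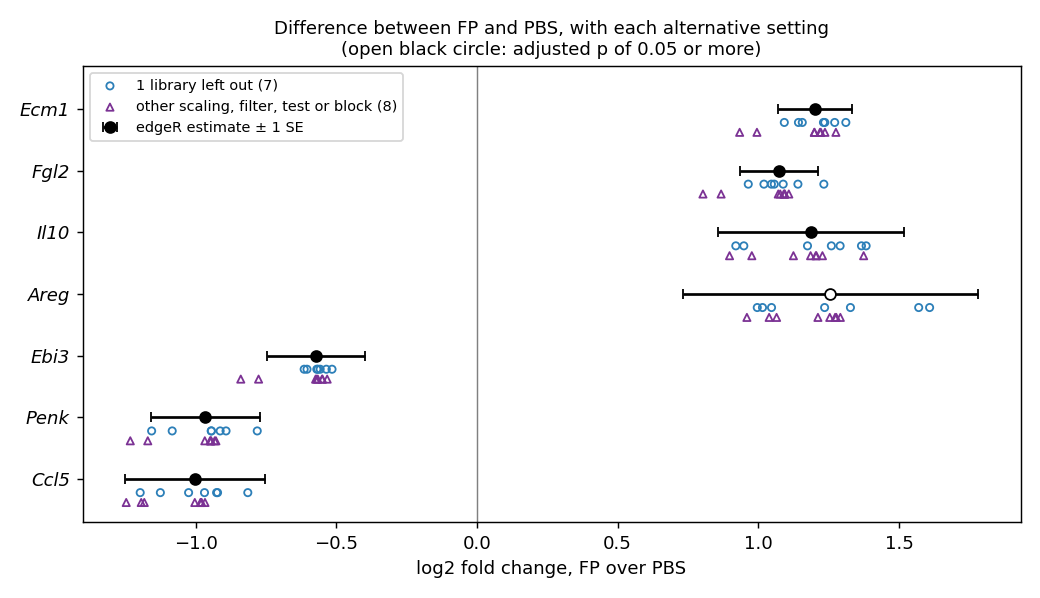
log2 fold change of FP over PBS for the 7 mediators tested; black circles with bars are edgeR estimates ± 1 SE (open where the adjusted p was 0.05 or more), blue circles leave out 1 library, and purple triangles use another scaling, filter, test or the replicate block. No mediator changes sign under any alternative drawn, and Areg has the widest bar (SE 0.52).

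Promoter windows from RefSeq (build GRCm38.p6, 250 bases before to 50 bases after a gene's start) were found for 5 of the 8 mediators, with a pair of windows for Il12a. The entries for Il10, Penk and Ccl5 were not among them. The windows were searched on both strands for the STAT motif TTCNNNGAA, the AP-1 motif TGANTCA, the cAMP response element TGACGTCA and the TATA box TATAAA. The windows of Ecm1 and Fgl2, the mediators with the smallest adjusted p among those that rose, and of Areg are shown because they hold matches, given in capitals:
Ecm1: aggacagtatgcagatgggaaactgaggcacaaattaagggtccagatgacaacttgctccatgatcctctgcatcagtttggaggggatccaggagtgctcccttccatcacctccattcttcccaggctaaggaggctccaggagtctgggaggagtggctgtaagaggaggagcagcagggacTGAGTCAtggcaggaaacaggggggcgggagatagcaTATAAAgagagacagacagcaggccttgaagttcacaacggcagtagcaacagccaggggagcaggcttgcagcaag
Fgl2: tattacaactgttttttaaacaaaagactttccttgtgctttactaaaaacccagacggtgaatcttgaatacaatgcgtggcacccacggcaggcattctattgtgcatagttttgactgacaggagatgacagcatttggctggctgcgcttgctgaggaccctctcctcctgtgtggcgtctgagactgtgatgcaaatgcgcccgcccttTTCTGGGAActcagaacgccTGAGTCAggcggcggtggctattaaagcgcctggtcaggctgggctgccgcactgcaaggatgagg
Areg: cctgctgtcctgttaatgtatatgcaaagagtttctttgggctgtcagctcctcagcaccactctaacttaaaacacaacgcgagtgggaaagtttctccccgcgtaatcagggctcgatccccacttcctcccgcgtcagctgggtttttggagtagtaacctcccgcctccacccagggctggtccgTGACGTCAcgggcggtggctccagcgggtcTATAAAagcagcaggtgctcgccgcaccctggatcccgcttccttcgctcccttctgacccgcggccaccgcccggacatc
The Ecm1 window (chr3:95739520-95739819, minus strand) holds the AP-1 motif from position -64 and a TATA box from position -27, counted from the start that RefSeq gives. The Fgl2 window (chr5:21372423-21372722, plus strand) holds the STAT motif from position -36 and the AP-1 motif from position -16. The RefSeq start of Fgl2 lies downstream of the GENCODE start printed above, so the STAT match spans that GENCODE start and the AP-1 match lies inside the GENCODE gene. The Areg window (chr5:91139349-91139648, plus strand) holds the cAMP response element from position -61 and a TATA box from position -31. No motif overlaps another in them, and the windows of Ebi3 and Il12a hold no match. Of 32851 promoter windows of the same length, 8.30% hold the STAT motif, 7.81% the AP-1 motif, 1.79% the cAMP response element and 13.6% the TATA box. These matches describe letters in a window and were not tested for binding.

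The order of the mediators differed between the groups once levels were divided by exon length. After PBS, Ecm1 led at 27.4 ± 3.85 CPM per kilobase (SD, n = 3), followed by Penk at 16.4 ± 4.21 and Fgl2 at 7.17 ± 1.22. Ebi3 (6.18 ± 0.507), Ccl5 (5.55 ± 1.08) and Il10 (3.80 ± 1.23) came next, then Areg (1.64 ± 0.651) and Il12a (0.0430 ± 0.0745), all in CPM per kilobase. The libraries of Fgl2, Ebi3, Ccl5 and Il10 overlapped from each neighbour to the next, so those neighbours are not set apart by their spread, while all libraries of Fgl2 and Ebi3 lay above all those of Il10. After FP, Ecm1 led at 63.0 ± 8.15 CPM per kilobase (SD, n = 4), followed by Fgl2 at 15.1 ± 1.70, Il10 at 8.76 ± 3.38 and Penk at 8.41 ± 1.41. Ebi3 (4.15 ± 0.270), Areg (3.92 ± 2.21) and Ccl5 (2.73 ± 0.660 CPM per kilobase) were lowest, and Il12a was at 0. Fgl2 overlapped Il10, Il10 overlapped Penk, and Ebi3, Areg and Ccl5 overlapped from neighbour to neighbour. Ecm1 stood clear of all other mediators in both groups, and Penk went from clear of Fgl2 after PBS to within the range of Il10 after FP.

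**Figure D3:**
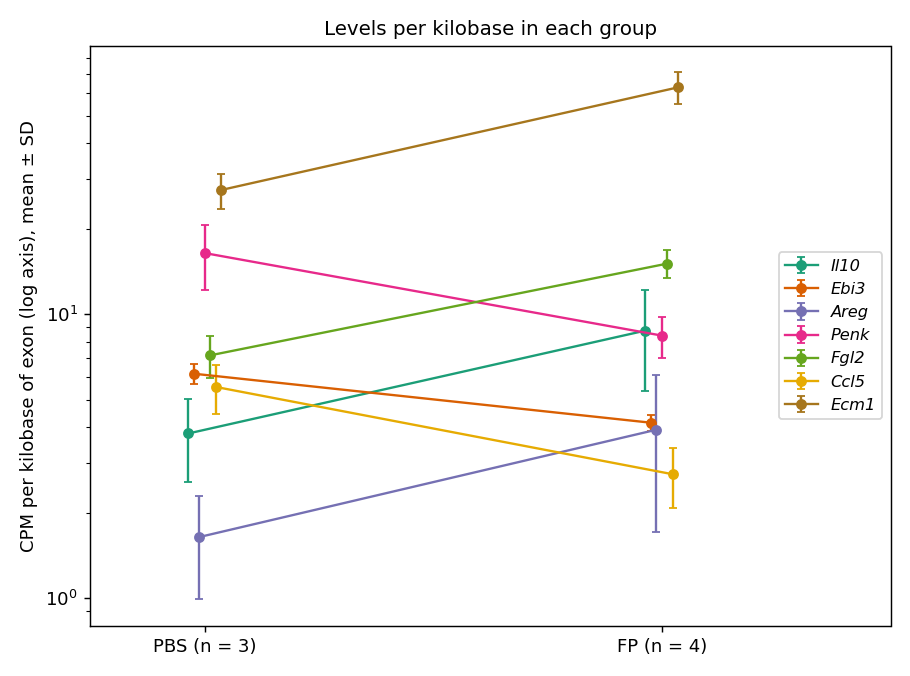
Mean level of each mediator per kilobase of exon after PBS and after FP on a log axis, with bars of ± 1 SD over 3 and 4 libraries; Il12a, at or near 0, is not drawn. Ecm1 is highest in both groups, and the lines of Penk and Fgl2 cross.

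Receptor chains of these cytokines went both ways. Of 7 chains listed for IL-10, IL-12, IL-23, IL-27 and IL-35, 2 rose, 3 fell, 1 did not pass and 1 was not tested. Over all genes tested, 21.0% were called higher and 18.5% lower, for comparison with this list and those below. These lists were chosen with earlier results of these data known. Il10ra, the ligand-binding chain for IL-10, rose from a PBS mean of 97.9 ± 6.63 CPM (SD, n = 3) to an FP mean of 167 ± 19.9 CPM (SD, n = 4), whereas its partner Il10rb measured 59.5 ± 0.915 CPM in the PBS libraries (SD, n = 3) against 59.4 ± 3.92 CPM in the FP libraries (SD, n = 4). Of the chains used by IL-35, Il12rb2 (log2 fold change 0.98, chosen after its value was seen) rose, and Il6st (-0.50) and Il27ra (-0.44) fell. Il12rb2 did not pass with library size alone (0.71, edgeR adjusted p = 0.0593) or without PBS replicate 2 (0.80, adjusted p = 0.0785). Il23r, of the IL-23 receptor, was called lower, with 5 counts over the FP and 38 over the PBS libraries. It held 0 to 3 counts in each FP library, so it passed the filter on low counts through the PBS libraries alone. A gene that enters in this way can hardly be called anything but lower, and its call gives no support.

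Among 11 transcription factors known to act on Il10, 7 rose, 4 did not pass and 0 fell (1 with library size alone). Of all genes tested, 21.0% were called higher and 18.5% lower. The list was chosen with earlier results known, so its share gives no support. The median log2 fold change of the 11 factors was 0.51. Prdm1, which encodes Blimp-1, rose by 0.98 (SE 0.11), Ahr by 0.73, Gata3 by 0.51 and Maf by 0.47 on the log2 scale. Batf (1.18), Nfil3 (1.03) and Irf4 (0.62), which also rose, were picked with their values in view. The rises of Maf and Gata3 did not pass with library size alone (edgeR adjusted p = 0.226 and 0.133). Neither did that of Maf with upper-quartile factors (0.0636), nor that of Irf4 without PBS replicate 2 (0.0697) or PBS replicate 3 (0.0729). Ets1, the most abundant factor that did not pass, measured 1830 ± 162 CPM in the FP libraries (SD, n = 4) against 1765 ± 192 CPM in the PBS libraries (SD, n = 3).

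Of 13 other EGF family ligands, shedding enzymes and receptors, 3 rose, 2 fell, 3 did not pass and 5 were not tested. Hbegf, another EGF family ligand, rose from a PBS mean of 1.66 ± 0.169 CPM (SD, n = 3) to an FP mean of 10.6 ± 4.97 CPM (SD, n = 4), or by a log2 fold change of 2.66 (SE 0.40, edgeR adjusted p = 0.000683). Unlike Areg, Hbegf did not overlap between the groups, but the difference between their fold changes was not tested. The receptor Erbb3 rose by 0.64, and Adam10 (0.26, chosen after its value was seen) also passed as higher, whereas Erbb2 (-2.51) and Rhbdf1 (-1.39) were called lower. Each had 33 counts over the FP libraries, against 153 and 70 over the PBS libraries. Both passed the filter on low counts through the PBS libraries alone, so these calls give no support. Rhbdf1 helps the shedding enzyme traffic. Its paralog Rhbdf2, named with its value in view, measured 20.4 ± 2.12 CPM in the FP libraries (SD, n = 4) against 18.9 ± 2.31 CPM in the PBS libraries (SD, n = 3) and did not pass. Erbb3 and Adam10 did not pass with upper-quartile factors (edgeR adjusted p = 0.0587 and 0.582), with library size alone (0.127 and 0.970) or without PBS replicate 3 (0.0685 and 0.158). Adam10 also did not pass without FP replicate 1 (0.0649), FP replicate 2 (0.0887) or PBS replicate 2 (0.181). Adam17, which sheds amphiregulin from the cell surface, measured 107 ± 9.33 CPM in the FP libraries (SD, n = 4) against 98.6 ± 1.50 CPM in the PBS libraries (SD, n = 3).

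Around Penk, 14 genes of opioid precursors, processing and receptors were listed, of which 2 rose, 1 fell, 3 did not pass and 8 were not tested. Processing genes changed in both directions while Penk fell. The carboxypeptidase gene Cpe rose from a PBS mean of 0.872 ± 0.226 CPM (SD, n = 3) to an FP mean of 7.62 ± 2.53 CPM (SD, n = 4) and the convertase gene Furin by 0.86 on the log2 scale (SE 0.09). Ctsl, a lysosomal protease gene also expressed by macrophages, fell by 2.31, beside the fall of the macrophage markers. The convertase gene Pcsk7 measured 64.4 ± 7.29 CPM in the FP libraries (SD, n = 4) against 53.9 ± 2.45 CPM in the PBS libraries (SD, n = 3) and did not pass, except without FP replicate 1 (0.34, edgeR adjusted p = 0.0151). Under upper-quartile factors, library size alone or no filter, 2 genes of this list were called lower. Oprm1, the mu opioid receptor gene, measured 17.6 ± 4.74 CPM in the FP libraries (SD, n = 4) against 20.3 ± 3.63 CPM in the PBS libraries (SD, n = 3), did not pass. Oprm1 is named here after a look at its value.

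Ccr3, a receptor for several chemokines, fell from a PBS mean of 41.0 ± 13.1 CPM (SD, n = 3) to an FP mean of 7.10 ± 3.38 CPM (SD, n = 4). It measured 26.9, 52.7 and 43.3 CPM in PBS replicates 1 to 3, where the macrophage markers summed to 803, 2049 and 1451 CPM. The part of macrophages in the Ccr3 difference was not tested. Of 10 listed chemokines of T cells and chemokine receptors, 1 fell, 2 did not pass and 7 were not tested. Without PBS replicate 1 or with no filter 1 was called higher and 2 lower, the DESeq2 test called 1 higher, and 2 were lower under upper-quartile factors or library size alone. Cxcl10, the most abundant that did not pass, measured 18.1 CPM in FP replicate 1 and 4.75 to 7.62 CPM in the other FP libraries, against 4.81 to 5.56 CPM after PBS. Of the 3 genes listed with Fgl2 (its paralog Fgl1 and the receptors Fcgr2b and Fcgr3), only Fcgr3 was tested. It fell by 3.49 on the log2 scale, beside the macrophage markers, and did not pass with the replicate number as a block (adjusted p = 0.107).

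ECM1 is known to bind the IL-2 receptor chain CD122, encoded by Il2rb, and thereby to affect the exit of T cells from lymph nodes through S1pr1. Il2rb rose by 1.29 (SE 0.16) on the log2 scale, and S1pr1 measured 339 ± 15.5 CPM in the FP libraries (SD, n = 4) against 350 ± 39.8 CPM in the PBS libraries (SD, n = 3) and did not pass. Klf2, a transcription factor that drives S1pr1, had a log2 fold change of 0.23 (edgeR adjusted p = 0.116), did not pass and was named to complete the list, which held 2 higher calls without PBS replicate 1 and with the replicate block. A list of other secreted products of T cells held 20 genes, among them Ltb, whose protein stays in the cell membrane. Of the 20 genes, 5 rose, 0 fell, 7 did not pass and 8 were not tested. Gzmb, a granzyme, rose by 8.05, the galectin genes Lgals1 and Lgals3 by 3.79 and 1.67, and Lif, an IL-6 family cytokine, by 3.25 (SE 0.26). Tgfb1, which encodes a further inhibitory cytokine of Tregs, rose by 0.39; it was named with its value known. Its rise did not pass with upper-quartile factors (edgeR adjusted p = 0.121), with library size alone (0.389) or without PBS replicate 3 (0.0871). Ltb, the most abundant that did not pass, measured 212 ± 35.0 CPM in the FP libraries (SD, n = 4) against 262 ± 28.2 CPM in the PBS libraries (SD, n = 3). Under upper-quartile factors (-0.52), under library size alone (-0.59) and without FP replicate 2 (-0.40) Ltb was called lower, and the list then held 2, 2 and 1 lower calls.

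**Figure D4:**
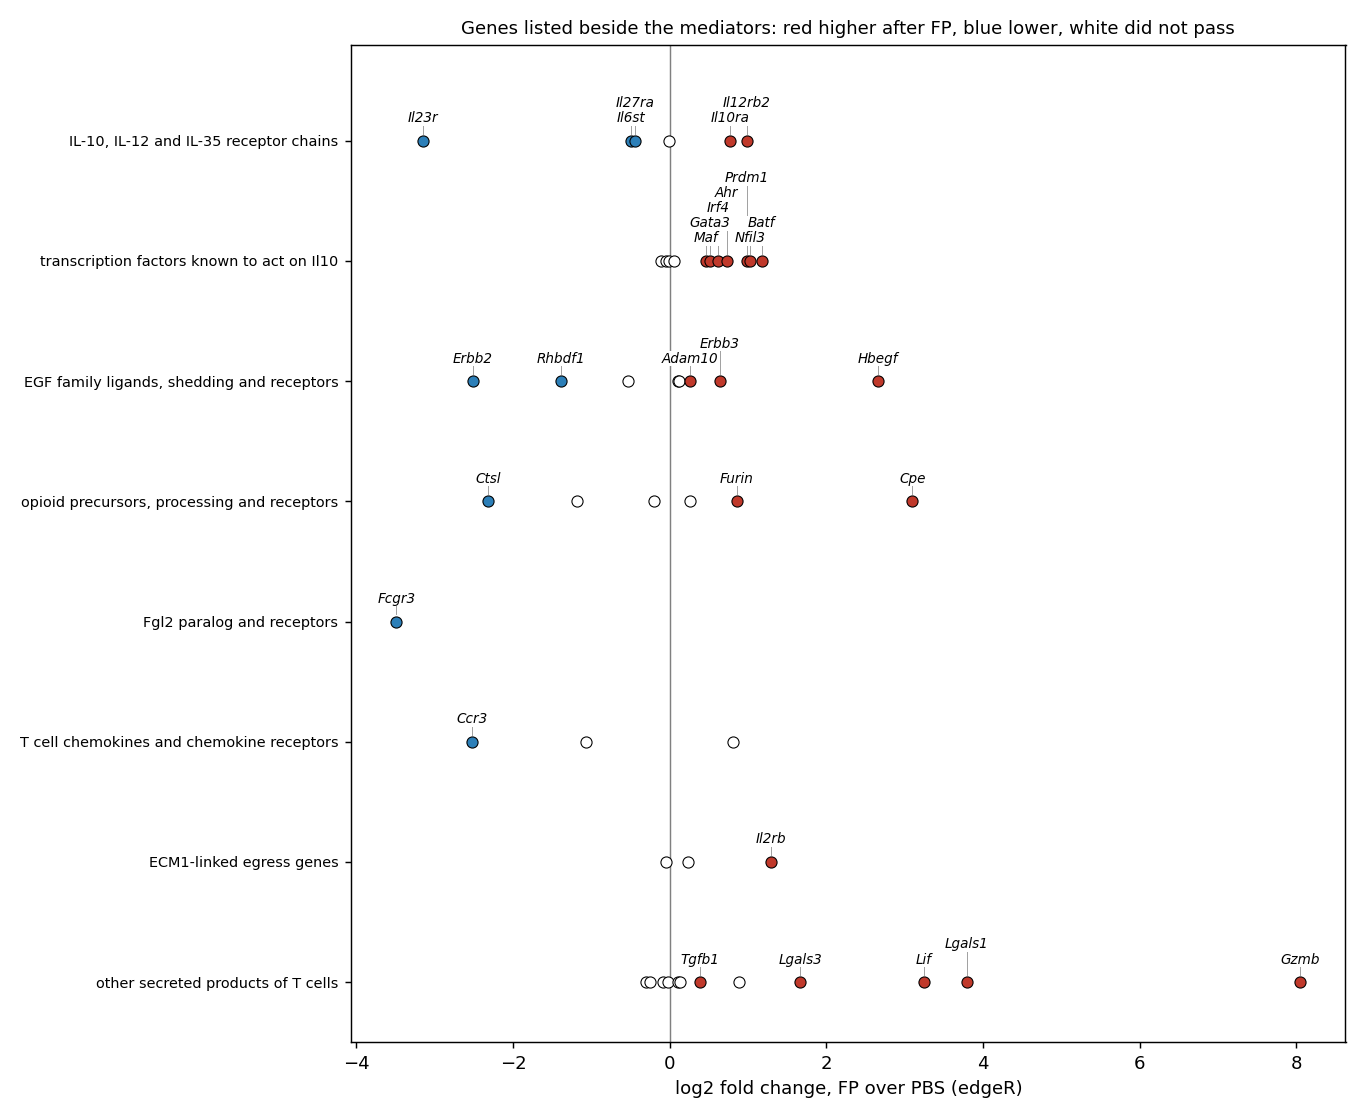
log2 fold change of FP over PBS (edgeR) for the tested genes of the 8 lists set beside the mediators that had a gene tested; red points were higher and blue points lower at an adjusted p under 0.05, and white points did not pass. The transcription factors known to act on Il10 hold 7 higher and 0 lower, where 21.0% of all genes tested were higher and 18.5% lower. Gzmb (8.05) lies farthest to the right.

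The genes with the most similar profile were found by the Euclidean distance between log2 CPM values over the 7 libraries, each centred on its gene's mean, among genes of at least 5 CPM. The values were not scaled by a gene's spread, so distances grow with the size and spread of its changes and do not compare mediators with each other. Ebi3 was closest to Kat6b and Brwd1, at distances of 0.13 and 0.15. Ecm1 was closest to Lmf2 and Lrrc59 (0.17 and 0.19) and Fgl2 to F2rl3 and Cpd (0.18 and 0.22). Ccl5 was closest to Nfia and Rflnb (0.30 and 0.32), Penk to Egr3 and Tubb2a (0.32 and 0.37), and Il10 to Txndc17 and Nme2 (0.42 and 0.47). For Areg, whose FP libraries spread most, the nearest were Cd69 at 1.09 and Klrg1 at 1.10. The activation marker Cd69 measured 514, 357, 137 and 153 CPM in FP replicates 1 to 4 and 194, 110 and 132 CPM in PBS replicates 1 to 3, so that, as for Areg, FP replicates 1 and 2 were highest and FP replicate 3 lay among the PBS libraries. FP replicate 4 lay among the PBS libraries for Cd69 and above them for Areg.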

How the data were processed

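The authors mapped reads to GRCm38 with STAR (2.5.0 per the design text, 2.5.0b per the submitters' processing notes). Gene counting used featureCounts 1.5.0 on GENCODE M13, and the deposited file holds unnormalized counts. Libraries came from 25 ng of total RNA after removal of ribosomal RNA, per the labels. The strand setting and the handling of multi-mapping reads are not given in the sources used here.

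All 15954 genes that passed filterByExpr were fitted with edgeR 4.0.16 (R 4.3.3; TMM factors, robust quasi-likelihood test, Benjamini-Hochberg adjustment). The filter asks for a minimum level in enough libraries, whatever their group. Il23r, Erbb2, Rhbdf1, Eomes, Fcgr3, Itgax and the macrophage markers Cd14 and Cd163 reached it in too few FP libraries to pass on those alone. Cpe reached it in too few PBS libraries. The direction of these calls was thus set in part by the filter. The model compared 4 FP with 3 PBS libraries without a block. The script was tested on simulated data. CPM values use TMM-scaled library sizes. Coordinates and union exon lengths came from GENCODE M21 on the same build, which is newer than M13 and can shift levels per kilobase. Floors of 3 counts cover counting error only.

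The members and lists were chosen with earlier results of these data known, and 1 listed gene is not reported here. Named genes were the mediators, Foxp3, up to 4 passing genes per list by p and the most abundant that did not pass. They also included the 2 nearest profiles of each mediator. The rule also took the 2 most abundant of each marker list, given here only for Treg, B cells, dendritic cells, and CD8 T and NK cells. Other names are marked as chosen after their values were seen, except cell markers and genes given to complete a list. Alternatives were other scalings, DESeq2 1.42.0, limma-voom (limma 3.58.1), other filters, each library left out and the replicate block.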

Additional observations from a re-analysis of the deposited data

How the results depend on the processing

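Under all 15 alternatives, the 7 mediators tested kept their direction. Calls of Ecm1, Fgl2 and Penk held under each. Leaving out 1 library gave log2 fold changes of 0.92 to 1.38 for Il10, -0.61 to -0.51 for Ebi3, -1.20 to -0.81 for Ccl5 and 0.996 to 1.61 for Areg. With no filter Ebi3 did not pass (-0.55), and Areg passed in the DESeq2 test (1.29) and with the replicate block (1.21, adjusted p = 0.0484). The block used replicates 1 to 3 of both groups. The numbers were not taken as pairs, since nothing in the labels says that a replicate number marks a shared batch. Deviations of same-numbered libraries correlated at 0.22, 0.07 and 0.10 across genes. FP replicate 4 and PBS replicate 3 correlated at 0.39, and FP replicate 2 correlated better with PBS replicate 1 (0.21) than with its own number. The submitted library names carry running numbers over both groups, whose meaning is not given. In that order FP replicates 1 and 2 come next after PBS replicate 1, and FP replicate 4 after PBS replicate 3. These 3 pairs had the highest correlations, and an effect of the order was not tested. The block fit called 7839 genes, against 7278 without FP replicate 4 and with no block. It changed no other mediator's call.

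Genes called ranged from 4088 to 7278 with 1 library left out (4088 without PBS replicate 3), those lower from 1774 to 3390 (1774 and 1869 without PBS replicates 3 and 2). Genes higher and lower numbered 3355 and 2953, against 2399 and 4823 with upper-quartile factors and 2032 and 5033 with library size alone, where the median of all genes shifted. Signs turned for genes near 0: under upper-quartile factors and under library size alone, Foxp3 (-0.068 and -0.13), Adam17 (-0.083 and -0.15) and Ets1 (-0.15 and -0.21), and Adam10 (-0.0054) and Pcsk7 (-0.00035) with library size alone. Ets1 ran from -0.013 to 0.17 and S1pr1 from -0.11 to 0.075 with 1 library left out. Il10rb turned to 0.017 with DESeq2 size factors, 0.035 in the DESeq2 test, 0.019 with no filter and 0.024 with the replicate block, and ran from -0.042 to 0.026 with 1 library left out. The cause of each was not tested. Depth limits Il12a, with 3 counts in all.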
